A study of Caenorhabditis elegans with 119 samples.

Results

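Worms of the strain EU1, which carries the allele zu67 of the transcription factor gene skn-1, were compared with worms of the wild-type strain N2 at days 4 and 12 of adulthood, in the absence of drug. The comparison used 12 EU1 libraries, 6 at each day, of the 119 libraries of the series. The series sequenced RNA of whole adult Caenorhabditis elegans to ask how sulforaphane, an isothiocyanate found in broccoli, acts in skn-1, daf-16 and wild-type worms. EU1 (genotype skn-1(zu67)) was set beside PX991 (genotype daf-16(fx107), 4 libraries a day), which was counted in the same table, and beside 3 sets of N2 (wild type, 4 libraries a day each). The N2 sets were the DMSO controls of the N2 treatment table and trials 2 and 3 of a table of further N2 controls. Every library came from about 50 whole worms kept at 20 °C on Escherichia coli OP50-1. From day 1 of adulthood all groups stood on plates with 0.25% DMSO, the solvent of the drug, and 51 µM of FUdR, which stops the growth of progeny. The labels do not say what zu67 changes in the gene, nor how EU1 adults were chosen from their stock, so the zygosity of the worms is unknown. EU1 replicates 1 to 3 were aged and collected together, while replicates 4, 5 and 6 were collected at separate times. The replicates of N2 and PX991 were each collected together within their set.

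SKN-1 is the worm counterpart of the mammalian NRF factors. In the intestine it switches on phase II detoxification genes such as glutathione S-transferases when worms meet electrophiles or oxidants, and in neurons and embryos it has separate roles in diet sensing and in the fate of endoderm and mesoderm. The WD40 protein WDR-23 targets SKN-1 for degradation, and a processed form of SKN-1 drives proteasome genes.

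Because the strain and the table are the same split, a gene was retained as differing in EU1 only under a strict rule, applied day by day. It had to pass the threshold in the same direction against each of the 3 N2 sets (edgeR quasi-likelihood test, adjusted p under 0.05). In addition, every EU1 library had to lie outside the range of all 12 N2 libraries of that day. Values are given as CPM, counts per 1e6 after TMM scaling. Library totals, in units of 1e6 counts, ran from 2.06 to 8.46 in EU1 and from 0.445 to 12.5 in N2. The N2 treatment-table replicate 4 of day 4 was the shallowest and stood apart, with 6660 genes detected at a common depth of 444501 counts, against 10450 to 11685 genes in EU1 libraries of day 4. The share of counts in ribosomal RNA genes moved with the sets, at 4.43% to 36.7% in EU1, against 0.560% to 1.82% in the N2 treatment table, 1.34% to 11.3% in trial 2 and 4.13% to 16.8% in trial 3. Its part in the results was not tested. All 10 defining germline markers, 5 muscle markers, 4 intestine markers and 5 neuron markers were above 0 in every EU1 library. Of 5 hypodermis markers, dpy-7 and cuti-1 were at 0 in at least 1 EU1 library.

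The mutated gene was looked at first. Counts over skn-1 (WBGene00004804, chromosome IV, 5651039 to 5660384, minus strand, WBcel235) fell in EU1 on both days. At day 4, skn-1 had 96.9, 114 and 137 CPM as lowest, median and highest of 6 EU1 libraries, against 254, 229, 220 and 252 CPM in PX991. The N2 libraries of day 4 had 261, 221, 230 and 252 CPM in the treatment table, 429, 440, 385 and 385 CPM in trial 2, and 228, 242, 234 and 237 CPM in trial 3. No EU1 library overlapped any N2 or PX991 library. The fold change against the mean of the N2 sets was -1.33 ± 0.09 on the log2 scale (SE), with an adjusted p of 1.32e-15.

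At day 12, skn-1 had 96.9, 132 and 160 CPM as lowest, median and highest in EU1, against 155, 208, 208 and 204 CPM in PX991. The N2 libraries had 329, 327, 320 and 332 CPM in the treatment table, 381, 333, 439 and 358 CPM in trial 2 and 261, 288, 289 and 278 CPM in trial 3. EU1 again stood below all of N2, and its highest library reached just past the lowest PX991 library. At this day every PX991 library also lay below every N2 library. The fold change of EU1 against the mean of the N2 sets was -1.31 ± 0.09 (adjusted p = 8.95e-16 by edgeR). Against the single sets, the log2 fold change of skn-1 ran from -1.86 to -1.05 at day 4 and from -1.52 to -1.09 at day 12. Against PX991, which shares the EU1 libraries of this comparison, it was -1.08 at day 4 and -0.56 at day 12. Of all 258 genes tested within 1 Mb of skn-1, skn-1 itself was the 1 retained on either day.

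**Figure D1:**
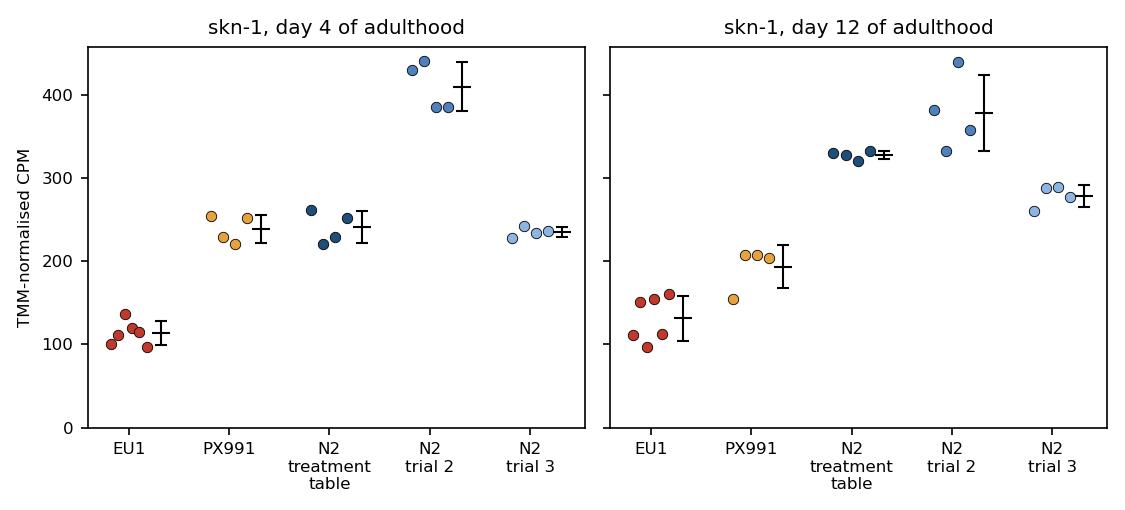
Normalised read count of skn-1 (TMM-scaled CPM) in each DMSO library, with the mean ± SD of each group beside its points. EU1 libraries sit between 96.9 and 160 CPM on both days, below every N2 library.

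Genes known to depend on SKN-1 differed in how far they separated from N2. The glutathione S-transferase gst-4 (WBGene00001752, chromosome IV, 10142225 to 10143099), a widely used reporter of SKN-1 activity, had 2.83, 6.67 and 10.8 CPM as lowest, median and highest in EU1 at day 4, against 0, 27.9 and 55.0 CPM over the 12 N2 libraries. The N2 value of 0 came from the shallow treatment-table replicate 4. The other 11 N2 libraries held 13.7 CPM or more, all above EU1. The fold change was -1.98 ± 0.34 (edgeR adjusted p = 4.99e-05), and gst-4 passed the test against each of the 3 N2 sets. It was not retained, since that 1 library overlapped, and it was among the retained genes once that library was left out. Summing counts per collection, which left 4 EU1 and 3 N2 collections a day, ended the day 4 call of gst-4 (edgeR adjusted p = 0.0963).

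At day 12 the level of gst-4 was low in both strains. EU1 replicates 1 and 2 had 3.29 and 2.74 CPM and replicates 3 to 6 had 0.205 to 0.359 CPM, against 1.17 to 5.09 CPM in N2. The fold change of -1.22 ± 0.44 missed the threshold (edgeR adjusted p = 0.0728), which it passed without EU1 replicate 1 (0.0115) or EU1 replicate 2 (0.0239). Replicate 3, which was collected with replicates 1 and 2, had the low level of the later collections.

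Other phase II genes were also lower on one or both days. The glutathione S-transferase gst-10 (chromosome V, 2561690 to 2564645) had 1.42, 16.7 and 20.1 CPM as lowest, median and highest in EU1 at day 4, against 18.5, 34.3 and 61.1 CPM in N2. Its fold change was -1.25 ± 0.31 at day 4 (edgeR adjusted p = 0.00423) and -2.16 ± 0.60 at day 12 (0.0155), the day 12 call being lost without EU1 replicate 6 (0.0635). The EU1 and N2 ranges of gst-10 met on both days. With counts summed per collection gst-10 passed on neither day (edgeR adjusted p = 0.256 and 0.166). The nitrilase nit-1 had a median of 0.844 CPM in EU1 and 3.33 CPM in N2 at day 4, with a fold change of -2.07 ± 0.63 (edgeR adjusted p = 0.0206), lost without EU1 replicate 1 (0.0548). At day 12 it was -1.89 ± 0.61 (0.0409), a call lost on leaving out any of 10 single libraries. Summed counts ended both calls of nit-1 (edgeR adjusted p = 0.174 and 0.211). The short-chain dehydrogenase dhs-8 had 0 counts in 4 of 6 EU1 libraries at day 4 and at most 0.432 CPM, against a median of 2.09 CPM and a highest value of 6.75 CPM in N2, where the same shallow library was at 0. Its fold change was -3.49 ± 0.74 at day 4 (edgeR adjusted p = 0.000854) and -1.10 ± 0.45 at day 12 (0.12).

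The remaining genes of the panel moved less or not past the threshold. For gst-7, the fold change was -0.73 ± 0.13 at day 4 (edgeR adjusted p = 0.000102) and -0.40 ± 0.13 at day 12 (0.0352). It depended on the N2 set. It was -1.10, -0.11 and -0.99 against the treatment table, trial 2 and trial 3 at day 4, and -0.87, 0.27 and -0.60 at day 12, where 12 of 18 single libraries left out ended the call. The SKN-1 repressor gene wdr-23 was at -0.31 ± 0.08 (0.00466) and -0.32 ± 0.08 (0.00422). With counts summed per collection, gst-7 (edgeR adjusted p = 0.268 and 0.88) and wdr-23 (0.193 and 0.393) passed on neither day. At day 12, wdr-23 had 99.0, 113 and 118 CPM in EU1, against 120.1, 140.0 and 156 CPM in N2, so the ranges did not overlap, but it passed the test against 1 of the 3 sets. The gene for the rate-limiting enzyme of glutathione synthesis, gcs-1, lay at 0.00 ± 0.09 on day 4 and 0.01 ± 0.09 on day 12 (edgeR adjusted p = 0.997 and 0.969). The proline catabolism gene alh-6, gst-38 and sdz-8 passed on neither day, although sdz-8 at day 4 (-1.84 ± 0.75, 0.0952) passed without EU1 replicate 6 (-3.52, 0.00945). Of 22 tested SKN-1 phase II targets among 24 listed, 6 were lower and 1 higher at day 4, and 4 were lower and 1 higher at day 12. Over all genes, 4.77% were lower and 8.97% higher at day 4, and 5.06% and 4.09% at day 12. The count of 4 at day 12 was 0 without EU1 replicate 6. It was 2 without EU1 replicate 2, 3 or 4, treatment-table replicate 1, trial 2 replicate 2 or trial 3 replicate 2. No phase II target was retained on either day. The higher gene on both days was the cytochrome P450 cyp-14A3 (3.01 at day 4 and 1.53 at day 12).

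**Figure D2:**
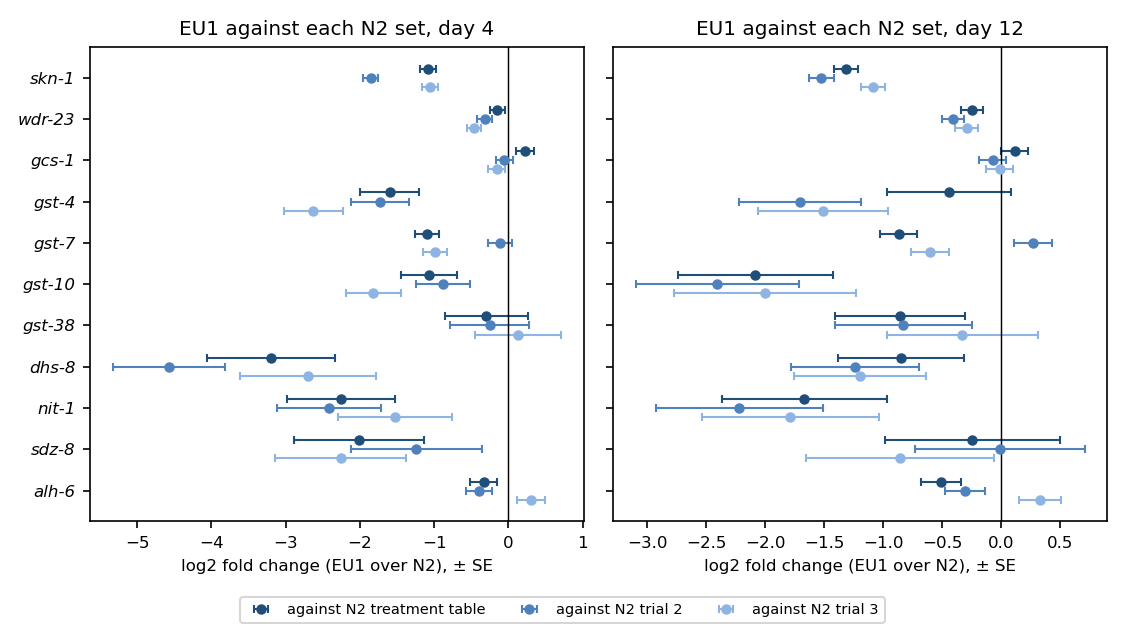
Log2 fold change of skn-1 and its panel of regulators and targets in EU1 over each N2 set (points, ± SE), at days 4 and 12. For skn-1 all 6 points lie between -1.86 and -1.05, gcs-1 points lie near 0, and gst-7 lies below 0 against 2 sets but not against trial 2 at day 12.

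Across the 12391 genes tested, 1111 were higher (8.97%) and 591 lower (4.77%) in EU1 than the mean of the N2 sets at day 4, with a median fold change of 0.05. Together these were 13.7% of the genes. At day 12, 507 were higher (4.09%) and 627 lower (5.06%), or 9.15% together, and without EU1 replicate 3 the total was 739. The count depended on the set. At day 4 the share of genes higher and lower in EU1 was 15.4% and 6.00% against the treatment table, 14.5% against trial 2, where 2111 genes were lower, and 1.62% and 1.45% against trial 3. At day 12 it was 5.98% and 10.1% against the treatment table, 12.2% and 10.8% against trial 2, and 1.13% and 0.896% against trial 3. The strain difference itself changed between the days at 92 genes that were higher (0.742%) and 435 lower (3.51%) at day 12 (edgeR interaction term). All p-values measure the spread between these libraries. When reads were summed per collection, which left 4 EU1 and 3 N2 collections a day, 64 genes passed at day 4 and 18 at day 12. skn-1 was among them on both days (edgeR adjusted p = 0.00208 and 0.00686).

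The strict rule retained 51 genes at day 4 (0.412% of those tested), 41 higher (0.331%) and 10 lower (0.0807%). It retained 33 genes at day 12 (0.266%), 15 higher (0.121%) and 18 lower (0.145%). In all, 79 genes were retained on either day and 5 on both. EU1 stood apart from pairs of N2 sets at fewer genes than the remaining N2 set did. Under the same rule at day 4, EU1 lay outside trials 2 and 3 at 130 genes (1.05%), against 810 (6.54%) for the N2 treatment table. It lay outside the treatment table and trial 3 at 84 genes (0.678%), against 1500 (12.1%) for trial 2, and outside the treatment table and trial 2 at 183 (1.48%), against 397 (3.20%) for trial 3. At day 12 EU1 lay outside the same pairs at 74 (0.597%), 49 (0.395%) and 273 (2.20%) genes, against 807 (6.51%), 1009 (8.14%) and 361 (2.91%) for the treatment table, trial 2 and trial 3. EU1 had 6 libraries and an N2 set 4, and more libraries make a lack of overlap rarer. PX991, with 4 libraries, lay outside all 3 N2 sets at 159 genes at day 4 (1.28%) and 1011 at day 12 (8.16%).

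The retained counts also moved with single libraries. At day 4 the count was 82 without EU1 replicate 3, and at day 12 it was 97 without EU1 replicate 2. Without the shallow N2 library, a choice made after seeing the data, 70 genes were retained at day 4 (48 higher and 22 lower). These shared 49 genes with the 51. That library held 0 counts at 35 of the 41 genes retained as higher. The filter on low counts was passed in N2 libraries alone by 37 of the 41 higher genes and all 10 lower genes of day 4, and by 11 of the 15 higher and all 18 lower genes of day 12. The values of retained genes below describe what the rule selected, and no test is given for the day on which they were selected.

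At day 4 the retained higher genes included members of the pals family. Some pals genes are part of the intracellular pathogen response, which worms switch on in the intestine and epidermis upon infection with microsporidia or Orsay virus. The levels of pals-32 (WBGene00016281, chromosome V, 2896610 to 2898527) were 3.38, 2.28, 4.95, 8.42, 2.81 and 12.1 CPM in EU1 replicates 1 to 6. The 12 N2 libraries ran from 0 to 0.587 CPM with 4 counts in all, and all 4 PX991 libraries were at 0. The EU1 libraries of pals-6 (chromosome I, 13136390 to 13138544) had 9.10, 14.7 and 30.1 CPM as lowest, median and highest, against 0, 1.51 and 5.60 CPM in N2. PX991 ran from 1.07 to 2.31 CPM, inside the N2 range. For pals-26 (chromosome III, 4375154 to 4378907) the values were 4.32, 9.12 and 19.1 CPM in EU1, against 0, 0.627 and 2.10 CPM in N2. The family members pals-1, pals-14 and pals-37 were also retained, with log2 fold changes of 2.84, 3.53 and 4.22.

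The pals family as a whole moved the same way. Of 38 listed members 26 were tested, and these 26 pass the filter in N2 libraries alone. At day 4, 20 of the 26 were higher and 0 lower, beside 8.97% of all genes higher, and the median log2 fold change was 3.08, beside 0.05 over all genes. The median was 3.88 against the treatment table, 2.28 against trial 2 and 2.56 against trial 3. At day 12, 10 were higher and 0 lower, with a median of 0.99. Against PX991 the median was 1.01 at day 4 (9 higher, 0 lower) and 0.02 at day 12 (2 higher, 1 lower). Over all genes 7.34% and 10.3% were higher there, and 6.01% and 7.65% lower. At day 12 the sum over the members ran from 175 to 548 CPM in EU1, a range that held PX991 (272 to 410 CPM). N2 sums were 99.4 to 208 (treatment table), 134 to 346 (trial 2) and 157 to 207 CPM (trial 3). The day 4 count against N2 was 12 in EU1 replicates 1 to 3 alone and 17 in replicates 4 to 6 alone. It was 17 without EU1 replicate 6, 20 without the shallow N2 library and 5 in sums per collection. Of 12 tested markers of the pathogen response, a list put together after values were seen, 6 were higher and 1 lower at day 4, 5 were higher and 0 lower at day 12, beside 4.09% of all genes higher, and 0 were retained on either day. Their medians were 0.95 and 0.96. The filter on low counts was passed in N2 libraries alone by 11 of the 12 markers. Of those 11, 6 were higher at day 4 and 4 at day 12, with medians of 0.85 and 0.59. The summed level of the 12 markers at day 4 ran from 130.2 to 259 CPM in EU1 and from 182 to 196 CPM in PX991. N2 sums were 95.9 to 172 CPM in the treatment table, 136 to 145 CPM in trial 2 and 165 to 199 CPM in trial 3. EU1 overlapped PX991 and all 3 N2 sets in this sum. The reporter gene of the response, pals-5, was barely read at day 4, with 5 counts in EU1 and 0 in N2. At day 12, pals-5 had 4.74, 17.8 and 35.1 CPM in EU1, against 1.52, 4.83 and 10.9 CPM in N2, a log2 fold change of 1.80 (edgeR adjusted p = 0.000564). Summed over the 26 members, EU1 held 146, 183 and 309 CPM as lowest, median and highest at day 4. The N2 sums ran from 49.7 to 121 CPM in the treatment table, from 77.0 to 103 CPM in trial 2 and from 111 to 185 CPM in trial 3, so the sum of trial 3 overlapped EU1. EU1 replicate 6 was the highest of the EU1 libraries for 21 of the 41 retained higher genes and EU1 replicate 2 the lowest for 17.

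Several retained genes were almost unread in N2. The chitinase-like gene chil-18 (chromosome II, 9448265 to 9449717) had 3.41, 6.57 and 39.3 CPM in EU1, and its 175 counts stood against 2 counts over the 12 N2 libraries. The ratio of levels was 264 (95% counting interval 72.1 to 2201, which covers counting error only). For Y71H2AR.2, 224 counts stood against 1, a ratio of 677 (120.3 to 26858). For ifas-1 the counts were 106 against 2, a ratio of 160.2 (43.3 to 1339.9), and 117 (31.2 to 984) without EU1 replicate 3. The saposin-like gene spp-9 (chromosome X, 11487784 to 11488203) had 71 counts against 1, a ratio of 215 (37.3 to 8594). Single EU1 libraries held much of these counts, and leaving them out was a choice made after seeing the data. Without EU1 replicate 6 the ratio was 142 (38.1 to 1195) for chil-18 and 337 (59.1 to 13462) for Y71H2AR.2. Without EU1 replicate 4 it was 95.5 (15.7 to 3911) for spp-9. PX991 held 4.62 to 10.8 CPM of spp-9, within the 0.569 to 17.6 CPM of EU1. The uncharacterised gene B0507.6 on chromosome V had 2.12, 6.45 and 11.3 CPM in EU1, against 0, 0.169 and 1.91 CPM in N2.

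Other retained genes of day 4 had a range of roles. The neuropeptide-like antimicrobial gene nlp-34 had 4.11, 13.2 and 18.4 CPM in EU1, against 0, 1.09 and 4.10 CPM in N2, while PX991 held 5.86 to 7.99 CPM. The gene dod-23, named as downstream of daf-16, had 231, 349 and 646 CPM in EU1, against 41.7, 54.7 and 166 CPM in N2. PX991 overlapped EU1 there too, at 429 to 506 CPM. Of 44 lysozymes and saposin-like effectors tested, 13 were higher and 0 lower, and of 73 C-type lectins 19 were higher and 1 lower, beside 8.97% of all genes higher and 4.77% lower. These counts depended on the N2 set. The median log2 fold change against the treatment table, trial 2 and trial 3 was 0.77, 1.25 and 0.07 for the effectors and 0.69, 0.57 and -0.03 for the lectins. The filter on low counts was passed in N2 libraries alone by 42 effectors, 13 of them higher, and 70 lectins, 18 of them higher. In the sulforaphane-treated libraries described further on, 4 of 43 effectors were higher and 6 lower at day 4, and 13 of 62 lectins were higher and 8 lower, beside 10.7% and 14.2% of all genes. The lectin clec-169 ran from 12.3 to 82.2 CPM in EU1, against 0 to 10.3 CPM in N2 and 0.385 to 0.958 CPM in PX991. In the unfolded protein response of the endoplasmic reticulum, 7 of 19 genes were higher and 1 lower, beside the same shares of all genes in DMSO. This response had a median log2 fold change of 0.43 against the treatment table, -0.03 against trial 2 and 0.23 against trial 3. Its transcription factor gene xbp-1 was retained, at 277, 294 and 329 CPM in EU1, against 156, 237 and 254 CPM in N2. The BiP chaperone gene hsp-3 passed against all 3 sets with a log2 fold change of 1.65, as did the calreticulin gene crt-1 at 0.59, though neither cleared every N2 library. At day 12, 1 of the 19 genes was higher and 2 lower, beside 4.09% and 5.06% of all genes.

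The uncharacterised gene R03H10.6 (chromosome II, 4171264 to 4173498) was among the most abundant retained genes, at 133, 199.8 and 263 CPM in EU1, against 0, 55.8 and 73.8 CPM in N2 and 10.1 to 18.6 CPM in PX991. Its N2 value of 0 was again that of the shallow library.

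**Figure D3:**
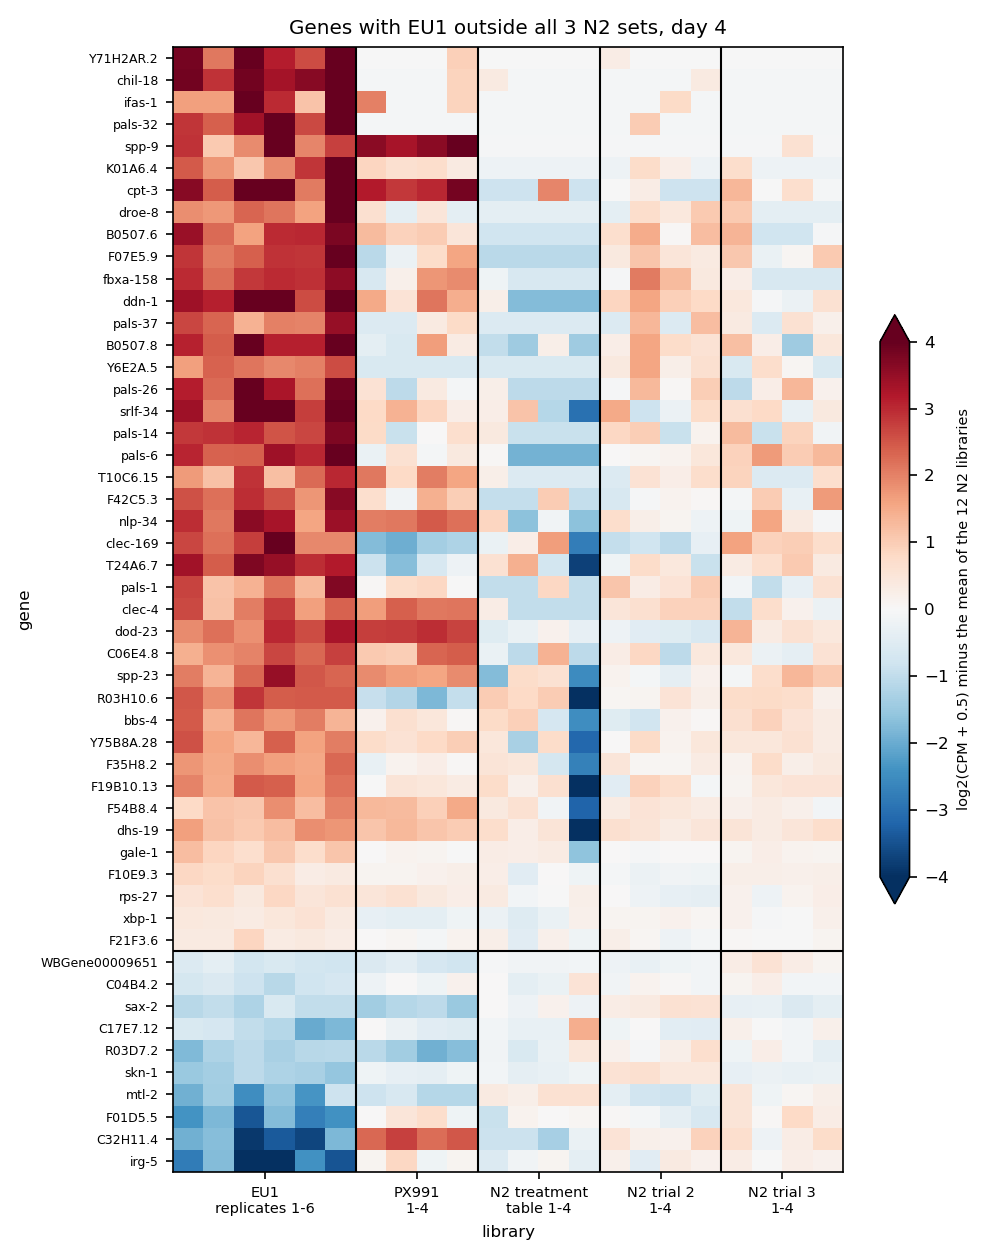
Level of each gene retained at day 4 in each library, as log2(CPM + 0.5) minus the mean of the 12 N2 libraries (colour scale limited to ± 4). The 41 higher genes form the upper block, with EU1 replicate 6 darkest for many genes, and the 10 lower genes the lower block.

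The 10 genes retained as lower at day 4 included a pathogen response gene and a metallothionein. The infection response gene irg-5 (chromosome V, 13737010 to 13738474) had 0, 3.90 and 10.8 CPM in EU1, against 25.5, 40.9 and 47.3 CPM in N2. F01D5.5 had 1.42, 3.36 and 5.61 CPM in EU1, against 10.6, 20.7 and 35.1 CPM in N2. C32H11.4 had 0.708, 2.66 and 4.84 CPM in EU1, against 6.42, 19.4 and 32.7 CPM in N2. PX991 lay far above both for C32H11.4, at 81.6 to 117 CPM. The Furry-family gene sax-2, which acts in neurite shape, had 65.8, 78.0 and 101 CPM in EU1, against 104, 146 and 237 CPM in N2, and 55.6 to 74.8 CPM in PX991. For sax-2 and R03D7.2, PX991 lay on the EU1 side of all N2 libraries. The other retained lower genes were mtl-2, skn-1, C17E7.12, C04B4.2 and the pseudogene WBGene00009651.

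At day 12 the retained higher genes included uncharacterised genes and a few signalling genes. F14F9.2 (chromosome V, 5144841 to 5145865) led them, at 5.74, 17.4 and 66.8 CPM in EU1, against 0, 0.627 and 1.45 CPM in N2. The neighbouring genes T05A8.2 and T05A8.1, on the minus strand of chromosome II, had medians of 37.2 and 21.7 CPM in EU1 and of 1.23 and 1.81 CPM in N2. PX991 libraries lay between these medians for both, at 5.93 to 18.9 CPM and 5.14 to 13.1 CPM. Their range overlapped that of EU1 for both genes. For T05A8.1 it also overlapped N2, whose highest library held 6.07 CPM. Among signalling genes, the FMRFamide-like neuropeptide gene flp-34 had 3.24, 11.05 and 14.3 CPM in EU1, against 0.287, 1.94 and 2.58 CPM in N2. The insulin-like peptide gene daf-28, whose product acts in the entry into dauer, had 4.35, 9.36 and 11.47 CPM in EU1, against 1.28, 2.36 and 3.98 CPM in N2. The chaperone gene hsp-3 (chromosome X, 6089028 to 6092124) was retained at this age, at 704, 881 and 1167 CPM in EU1, against 451, 573 and 673 CPM in N2. PX991 held 395 to 494 CPM of hsp-3.

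The genes retained as lower at day 12 included proteases and lysosomal genes. The cathepsin B-like protease gene cpr-1 (chromosome V, 11975551 to 11976756) had 1.79, 10.4 and 26.4 CPM in EU1, against 28.9, 92.4 and 251 CPM in N2 and 79.8 to 182 CPM in PX991. Its relative cpr-2 had 1.83, 13.1 and 41.4 CPM in EU1, against 54.3, 173 and 679 CPM in N2, with PX991 at 0.395 to 2.46 CPM. Another relative, cpr-6, had 19.7, 51.5 and 72.8 CPM in EU1, against 92.5, 149 and 231 CPM in N2. The lysosomal genes lmp-1, for a LAMP-like membrane protein, and nuc-1, for the DNase II that degrades DNA of dead cells, had log2 fold changes of -0.75 and -1.08. The aspartyl protease gene asp-17, the invertebrate lysozyme gene ilys-5 and the ceramide synthase gene hyl-2 were also retained, at -2.10, -3.28 and -0.80. The peroxidase gene skpo-1 had 133, 289 and 411 CPM in EU1, against 423, 652 and 859 CPM in N2. The EU1 libraries of 12 of the 18 genes overlapped PX991. PX991 held 66.0 to 80.1 CPM of cpr-6 and 0 to 12.3 CPM of asp-17, in both below every N2 library. PX991 held 83.4 to 119 CPM of lmp-1, against 75.8 to 133 CPM in EU1.

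Intestine markers were also lower at day 12, but their list shares members with the retained genes. Of its members, 3 were themselves retained as lower at day 12, among them mtl-2. At day 12, 10 of 20 tested intestine markers were lower and 0 higher, beside 5.06% of all genes lower, with a median log2 fold change of -0.97. The summed level of the tested markers ran from 408 to 691 CPM in EU1, against 1502 to 1995 CPM in the treatment table, 1107 to 1527 CPM in trial 2 and 672 to 976 CPM in trial 3. EU1 and trial 3 overlapped in this sum. The defining marker ges-1, the gut esterase, was at -1.38, and the values of elt-2, ifb-2 and act-5 are not given here. The gene pept-1, the intestinal peptide transporter, is not a defining marker and passed against all 3 sets at -1.67. Cathepsin and aspartyl protease genes, a list put together after the values were seen, had 13 of 22 members lower and 0 higher at day 12 (median -1.25), and 9 higher and 1 lower at day 4 (median 0.45), beside 8.97% and 4.77% of all genes. All 6 vitellogenin genes, which encode yolk proteins made in the intestine, were lower at day 12 with a median of -1.23, and 0 were retained. Summed over the 6 genes, EU1 held 2100 to 8007 CPM and PX991 2732 to 3896 CPM, against 10735 to 16388 CPM in the treatment table, 15122 to 19052 CPM in trial 2 and 5452 to 8320 CPM in trial 3, which overlapped EU1. The protease sum ran from 719 to 2481 CPM in EU1 and from 989 to 1667 CPM in PX991, against 1701 to 5811 CPM over the N2 libraries. In reads summed per collection, 0 vitellogenins, 0 proteases and 1 intestine marker passed as lower at day 12, and 3 vitellogenins passed with the collection as a random block. At day 4, 0 of 6 passed and 5 of 20 intestine markers were higher. Whether fewer intestinal cells or less RNA per cell stood behind a lower level cannot be told apart in whole worms, and the part of the markers in the protease result was not tested.

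**Figure D4:**
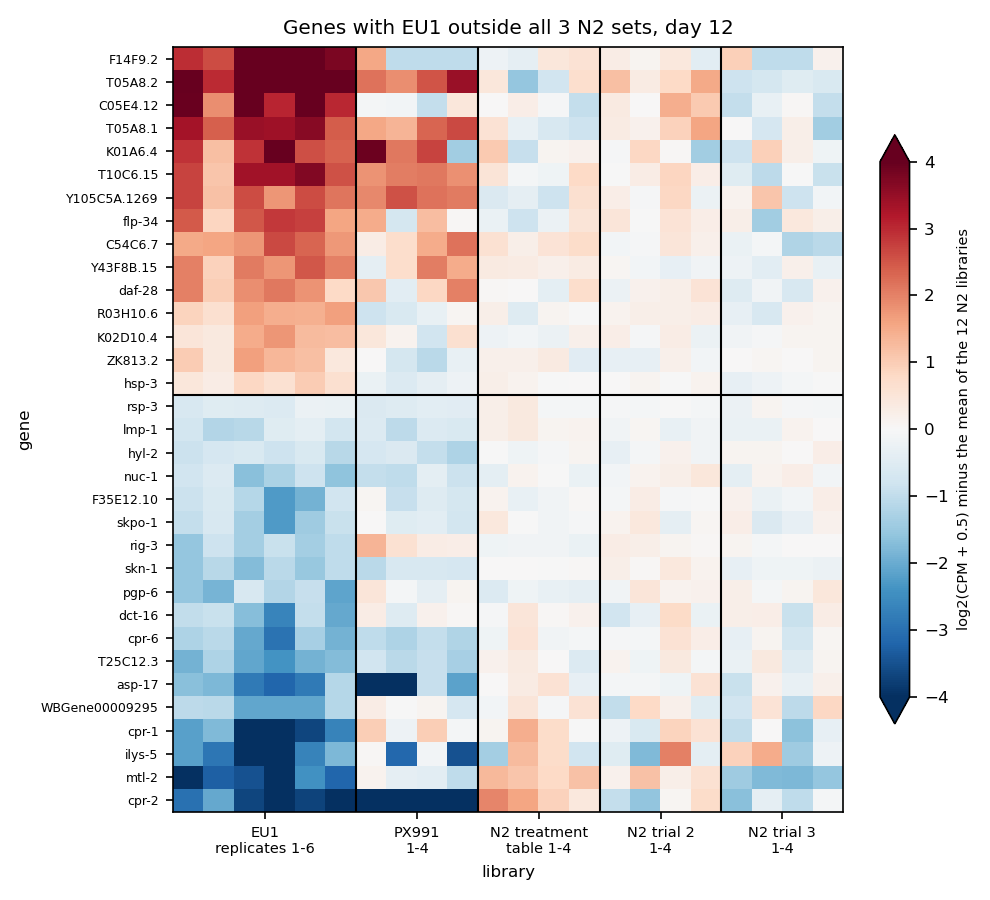
Level of each gene retained at day 12 in each library, as log2(CPM + 0.5) minus the mean of the 12 N2 libraries (colour scale limited to ± 4). The 15 higher genes form the upper block and the 18 lower genes the lower block, with PX991 on the EU1 side for several genes such as cpr-2.

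A set of 5 genes was retained on both days in the same direction, and 0 in opposite directions. The metallothionein gene mtl-2 (WBGene00003474, chromosome V, 14018270 to 14018673), which binds heavy metals and is expressed in the intestine, had 21.9, 37.4 and 70.2 CPM in EU1 at day 4, against 70.3, 139.5 and 191 CPM in N2. The highest EU1 library, replicate 6, lay just under the lowest N2 library. PX991 held 55.9 to 80.1 CPM of mtl-2 at day 4, which overlapped both EU1 and N2. At day 12 mtl-2 had 4.30, 7.44 and 14.8 CPM in EU1, against 23.3, 111 and 202 CPM in N2 and 40.2 to 91.2 CPM in PX991. The log2 fold change was -1.66 at day 4 and -3.35 at day 12.

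Beside skn-1 and mtl-2, the uncharacterised genes K01A6.4, T10C6.15 and R03H10.6 were higher on both days. K01A6.4 (chromosome IV, 11738989 to 11740304) had 0.708, 2.11 and 11.3 CPM in EU1 at day 4, against 0, 0 and 0.440 CPM in N2. At day 12 it had 2.49, 8.25 and 21.9 CPM, against 0, 0.878 and 2.19 CPM. PX991 held 0.240 to 0.533 CPM of K01A6.4 at day 4, below EU1, and 0 to 19.5 CPM at day 12, which overlapped EU1. T10C6.15 (chromosome V, 16044294 to 16045940) had a median of 2.45 CPM in EU1 and 0.179 CPM in N2 at day 4, and of 27.7 CPM in EU1 and 2.82 CPM in N2 at day 12. PX991 held 0.770 to 2.66 CPM of T10C6.15 at day 4 and 11.2 to 14.1 CPM at day 12. These overlapped the EU1 ranges of 1.14 to 5.43 CPM and 6.74 to 43.4 CPM, and at day 12 PX991 too lay above every N2 library. R03H10.6 at day 12 had 63.6, 109.8 and 128 CPM in EU1, against 25.6, 44.1 and 49.5 CPM in N2, and the PX991 libraries stayed at 22.4 to 42.7 CPM.

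Larger gene groups tied to SKN-1 function were then counted. For proteasome subunits, 19 of 31 were lower at day 4 and 19 at day 12, beside 4.77% and 5.06% of all genes, with medians of -0.26 and -0.24 and 0 retained. Against trial 2 the median was 0.01 at day 4 and -0.07 at day 12, and against the treatment table -0.47 and -0.50. At day 12 the count was 11 without EU1 replicate 3 or N2 trial 2 replicate 1 and 12 without N2 trial 2 replicate 2. Glutathione S-transferases had 5 of 31 tested members lower and 3 higher at day 4, and 4 lower and 1 higher at day 12, beside 8.97% higher at day 4 and 4.09% at day 12 over all genes. The filter on low counts was passed in N2 libraries alone by 27 of the 31. Of the 27, 2 were higher and 5 lower at day 4, and 1 was higher and 4 lower at day 12.

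**Figure D5:**
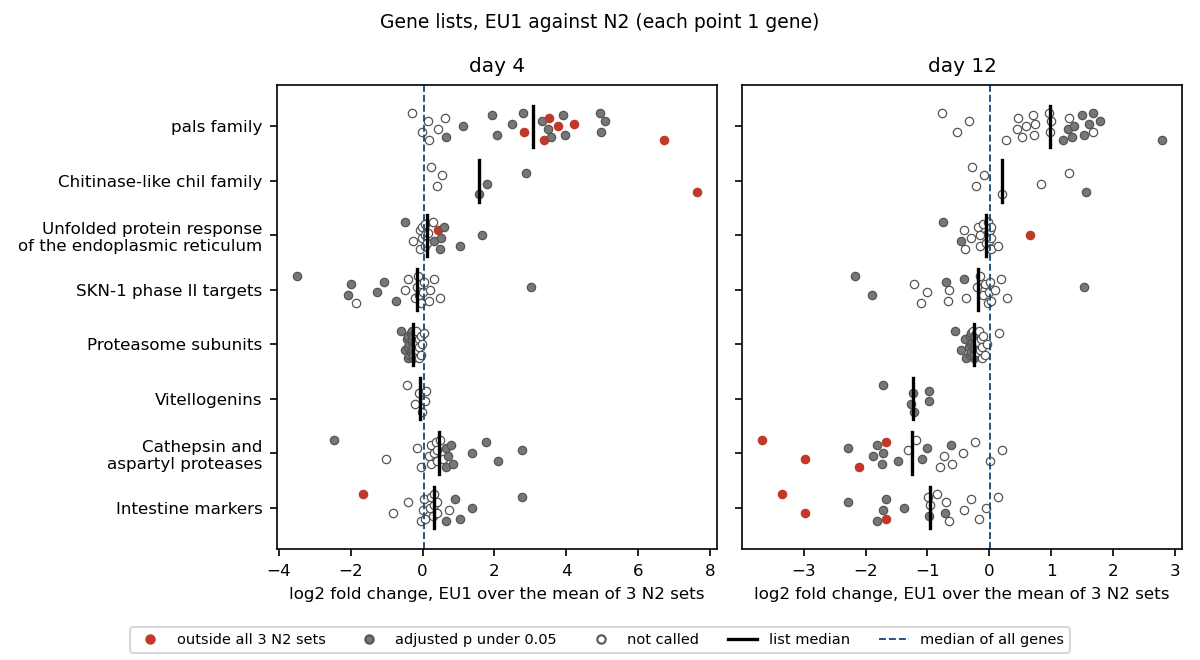
Log2 fold change in EU1 over the mean of the 3 N2 sets for each tested member of 8 gene lists, at days 4 and 12, with list medians (bars) and the median of all genes (dashed line). The pals family lies to the right at day 4 with a median of 3.08, and cathepsin and aspartyl proteases and vitellogenins lie to the left at day 12 with medians of -1.25 and -1.23.

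Sulforaphane-treated libraries of the same strains, which the rule did not use, gave a further comparison of EU1 with N2 under drug. It held 5 and 6 EU1 libraries against 4 and 4 N2 libraries at days 4 and 12, and tested 11154 genes. Strain and table are the same split there too. The N2 libraries under drug were of the treatment table alone, so trials 2 and 3 did not enter this comparison. Of the 41 genes retained as higher at day 4, 28 passed as higher under drug, beside 10.7% of all genes, and 0 passed as lower. Their median log2 fold change was 2.72, beside 0.01 over all genes. Of the 10 retained as lower, 6 passed as lower, beside 14.2%, with a median of -1.29. At day 12, 7 of 12 tested higher genes passed as higher, beside 17.8%, and 13 of 18 lower genes passed as lower, beside 17.9%, with 0 in the opposite direction. The gene pals-32 was at 7.91 ± 1.01 (edgeR adjusted p = 9.14e-06) and mtl-2 at -2.07 ± 0.41 (0.00199) at day 4. At day 12 mtl-2 was at -3.01 ± 0.39 (4.62e-05), cpr-1 at -1.66 ± 0.23 (5.29e-05) and pgp-6, for a P-glycoprotein transporter, at -2.51 ± 0.25 (2.6e-07). skn-1 itself was at -1.51 ± 0.12 and -1.48 ± 0.11. Genes retained in DMSO but not past the threshold under drug included irg-5 (-1.70 ± 0.76, 0.117), R03H10.6 (0.71 ± 0.54 and 0.87 ± 0.53) and cpr-2 (-0.91 ± 0.99, 0.51).

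SKN-1 targets were read in the same drug-treated libraries, and whether the strain difference itself changed with drug was not tested. Of 21 phase II targets tested, 11 were lower and 2 higher at day 4, and 13 lower and 1 higher at day 12 under drug, beside 14.2% and 17.9% of all genes lower. Among them nit-1 had 0.355, 0.408 and 1.52 CPM as lowest, median and highest in EU1 at day 4, against 8.19, 10.7 and 11.6 CPM in N2, with a log2 fold change of -3.89 ± 0.39 (edgeR adjusted p = 2.49e-07). sdz-8 was at -4.13 ± 0.58 (1.66e-05) and gst-7 at -0.23 ± 0.19 (0.384) at day 4, and gst-7 at -1.46 ± 0.17 (5.52e-06) at day 12. gcs-1 was at -0.13 ± 0.12 and -0.05 ± 0.11 (0.434 and 0.766). For pals genes under drug, 13 of 22 tested were higher at day 4 and 14 at day 12, beside 10.7% and 17.8% of all genes. Lower were 0 at day 4 and 1 at day 12. For vitellogenins at day 12, 6 of 6 were lower under drug as well, and for intestine markers 12 of 19.

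Each retained gene was also set against PX991, which shares the table but also the EU1 libraries of the rule. The genes were chosen for how far those libraries stood out, so nothing is read from how many passed. Of the 41 higher genes of day 4, 30 passed as higher against PX991, beside 7.34% of all genes, and 29 did not overlap any PX991 library. Of the 10 lower, 5 passed as lower, beside 6.01%, and 6 did not overlap. At day 12, 7 of 15 higher genes passed as higher, beside 10.3%, and 9 of 18 lower genes passed as lower and 1, cpr-2, as higher, beside 7.65% lower. Over all genes the day 12 comparison with PX991 called 2226 genes, and 1214 without PX991 replicate 1. PX991 itself lay outside all of N2 on the same side at 11 retained genes on each day. Between days, 22 of the 41 higher genes of day 4 were also higher at day 12 and 1 was lower. Over all genes 4.09% were higher and 5.06% lower at day 12. Of the 18 lower genes of day 12, 4 were lower and 4 higher at day 4, beside 4.77% and 8.97% of all genes. Both days share the same split of strain and table. Chromosome I held 6 of the 51 genes retained at day 4 and 0 of the 33 at day 12, with 17.1% of the genes tested. Chromosome V held 17 of 51 at day 4 and 13 of 33 at day 12, with 18.8% of the genes tested. Chromosome X held 2 at day 4 and 10 at day 12, with 13.2%, chromosome II 12 and 4, with 17.3%, and chromosome III 8 and 3, with 16.8%. Chromosome IV, which carries skn-1, held 6 and 3, with 16.8%.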

How the data were processed

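RNA was sequenced from pools of about 50 worms. The deposited values are raw counts per gene in 3 tables, made by the authors with featureCounts 2.0.2 on WBcel235, with Ensembl release 108 named per the file headers of the treatment table. The aligner is not given in the sources used here. Gene positions are from Ensembl release 115, in which all 46926 identifiers were found. A model with 10 strain, day and set groups was fitted to the 44 DMSO libraries (34 residual degrees of freedom), after edgeR's filter on low counts left 12391 genes. edgeR 4.0.16 in R 4.3.3 gave TMM scaling and the quasi-likelihood test with Benjamini-Hochberg adjustment over all genes tested. SE is the log2 fold change over the root of F. Sulforaphane libraries were fitted apart (19 libraries, 15 residual degrees of freedom). The DMSO fit was also run on simulated counts with a common mean per gene, apart from genes changed in EU1 at day 4. No difference between tables, sets or collections was simulated, so that run cannot speak to the split of strain and table. Genes named were skn-1 and its panel, the 8 retained genes a day and direction with the largest change and at least 5 CPM, and list members retained on both days. Other genes named were chosen after their values were seen. The members and the 36 gene lists were chosen with earlier results of these data known, and 3 lists were added after values were seen (proteases, chil genes, pathogen response markers). Alternatives used limma 3.58.1 and DESeq2 1.42.0, other scalings and filters, collections and single libraries left out. Of 78 replicate pairs 0 held identical values, and their chi-square per degree of freedom was 2.22 or more. Intervals on count ratios are exact 95% intervals and cover counting error only.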

Additional observations from a re-analysis of the deposited data

Results flagged for a closer look

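Of 203 gene and group combinations of 4 to 6 libraries, 26 held a library far from the others of its group. Chance gives about 1 in 20 such groups for normally distributed values, a rate that does not hold for low counts. A group with reads in 1 library and 0 in the others is always flagged, so nothing is read from the number flagged. In EU1 at day 4, replicate 6 was high for chil-18 at 39.3 CPM (3.41 to 7.13 CPM in the others), F07E5.9 at 17.1 CPM (3.98 to 7.22) and sdz-8 at 2.51 CPM (0 to 0.432). EU1 replicate 3 was low for gst-10 at 1.42 CPM (13.8 to 20.1), and EU1 replicate 4 was high for sax-2 at 101 CPM (65.8 to 78.9). In EU1 at day 12, replicate 1 was high for gst-10 at 1.77 CPM (0 to 0.575). Replicate 3 was high for gst-38 at 1.73 CPM (0.499 to 0.915) and for nit-1 at 2.3 CPM (0 to 0.717). Replicate 4 was high for K01A6.4 at 21.9 CPM (2.49 to 9.20) and replicate 5 for F14F9.2 at 66.8 CPM (5.74 to 22.2).

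Among N2 treatment-table libraries of day 4, replicate 1 held the single counts of chil-18 (0.179 CPM) and fbxa-158 (0.179 CPM) and was low for F01D5.5 at 10.6 CPM (20.4 to 22.2). Replicate 3 was high for cpt-3 at 2.94 CPM (0 in the others), and the shallow replicate 4 was high for C17E7.12 at 47.9 CPM (14.1 to 16.0). In trial 2 of day 4, replicate 1 was low for sdz-8 at 0.378 CPM (1.37 to 1.55) and high for Y71H2AR.2 at 0.126 CPM. Replicate 2 was high for pals-32 at 0.587 CPM and F07E5.9 at 1.76 CPM (0.855 to 0.966), replicate 3 for ifas-1 at 0.386 CPM and replicate 4 for chil-18 at 0.171 CPM. In trial 3 of day 4, replicate 1 was high for fbxa-158 at 0.433 CPM. At day 12, treatment-table replicate 2 was high for cpr-6 at 228 CPM (139 to 146). Trial 2 replicate 3 was high for ilys-5 at 59.1 CPM (3.87 to 10.9) and replicate 4 for asp-17 at 35.6 CPM (20.8 to 22.4). Trial 3 replicate 3 was low for dct-16 at 26.6 CPM (57.9 to 61.2).

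For 16 named genes edgeR's interaction term between strain and day passed the threshold. They were chosen on 1 of these days for a large strain difference there, which by itself tilts the interaction toward a difference, so the values below are a description and support nothing. The log2 fold change at day 12 minus that at day 4 was -4.35 for cpr-1, -2.32 for cpr-6, -2.47 for asp-17, -3.70 for ilys-5 and -1.69 for mtl-2. It was -6.07 for chil-18, -3.94 for pals-32, -3.38 for B0507.6, -3.44 for cpt-3, -2.66 for fbxa-158 and -2.36 for F07E5.9. It was -2.46 for T25C12.3 and -1.66 for dct-16. It was positive for flp-34 (2.88), C54C6.7 (1.80) and C17E7.12 (1.55).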

How the results depend on the processing

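Alternatives were run for the 41 genes named by the rule (skn-1, its panel and the largest retained changes), and none of the calls reversed. Other genes named have none, and gcs-1, near 0, has no direction to keep. Outcomes were counted per gene, day and alternative. Of single-library exclusions 1440 left the outcome unchanged, 30 lost the call and 6 gained one. Of other alternatives 926 left it unchanged, 79 lost the call and 16 gained one. A gene that passed in neither fit counts as unchanged, whatever its sign, so the unchanged totals are not counts of calls kept. With counts summed per collection, 64 genes passed at day 4 and 18 at day 12, and 18 were retained at day 12. Summed counts left 5 and 0 pals genes higher (days 4 and 12), 1 and 0 phase II targets lower, 0 and 0 proteasome subunits lower, and at day 12 0 proteases, 0 vitellogenins and 1 intestine marker lower. Fewer samples enter that fit. EU1's first collection alone gave 978 genes at day 4, 116 retained at day 12, 12 pals genes at day 4 and 1 phase II target at day 12. Later collections alone gave 693 genes at day 12, 167 and 179 retained, and 6 proteasome subunits at day 12. Voom with collection as a random block gave 910 genes and 21 retained at day 4, and 3 vitellogenins. Voom with quality weights gave 2026 genes at day 12 and 33 retained at day 4. The tests alone retained 124 and 94 genes, no overlap alone 67 at day 12, and no overlap with PX991 as well 11 at day 12. The cause was not tested.

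Single libraries left out gave 1256 to 2029 genes at day 4 and 739 to 1375 at day 12, 36 to 82 and 22 to 97 retained, 1149 to 2039 and 1214 to 2397 against PX991, 375 to 682 for the difference between days, and 1982 to 2834 and 2747 to 4569 under drug. For lists at days 4 and 12 they gave 17 to 20 and 9 to 13 pals genes, 5 to 7 and 0 to 4 phase II targets, and 14 to 22 and 11 to 19 proteasome subunits. At day 12 they gave 12 to 13 proteases, 9 to 11 intestine markers and 4 to 6 vitellogenins. At day 12 the split of 507 higher and 627 lower became 648 and 579 with DESeq2's size factors and 831 and 752 with DESeq2. Same-numbered libraries do not pair: 24 pairs had correlations from -0.263 to 0.295, 6 over 0.1. With the replicate number as a block, 1473 and 1311 genes passed, 42 and 27 were retained and 497 differed between days. In that fit nit-1 missed the threshold on both days (0.0836 and 0.0889).

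Depth limits genes of a few counts, and the shallow N2 library of day 4 held 0 counts at 35 of 41 higher genes. Strain and table cannot be told apart, and the replicates of a set were collected together.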

Other observations

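Cytochrome P450 genes, which act in detoxification and lipid signalling, were higher in EU1 at day 4 for 18 of 48 tested members and lower for 1, beside 8.97% and 4.77% of all genes, and at day 12 for 3 and 1, beside 4.09% and 5.06%. In sulforaphane-treated libraries of day 4, 10 of 44 were higher and 11 lower, beside 10.7% and 14.2%. C-type lectins had 3 of 73 members higher and 14 lower at day 12, and lysozymes and saposin-like effectors 5 higher and 9 lower of 44, beside 4.09% and 5.06% of all genes. Of the 42 effectors that pass the filter on low counts in N2 libraries alone, 4 were higher and 9 lower at day 12. Neuropeptide genes had 7 of 71 members higher and 0 lower at day 4, a share near that of all genes, and 9 higher and 0 lower at day 12. Core and linker histone genes had 17 of 39 higher and 4 lower at day 4, beside 8.97% and 4.77%, with a median log2 fold change of 1.67 against the treatment table, 0.95 against trial 2 and -0.16 against trial 3.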
